A study of Mus musculus with 9 samples.

Results

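The Hippo pathway core and its TEAD partners were followed as 10 genes, taken by name from the count table: Yap1, Wwtr1, Tead1, Tead2, Tead3, Tead4, Lats1, Lats2, Nf2 and Vgll4. All 10 were found among its 27998 genes. The table holds single-cell RNA-seq of C57BL/6 mouse liver in 9 libraries, each count being a unique molecular identifier (UMI), that is, 1 captured transcript molecule. All 3 groups carried ROSA26-rtTA-IRES-EGFP, the doxycycline-dependent activator. The WT group (2 libraries) had no YAP transgene and received doxycycline food for 7 days. The YAP3d group (4 libraries) and the YAP7d group (3 libraries) also carried tetYAP, from which doxycycline induces YAP, and received doxycycline for 3 and 7 days. WT was thus matched in length of doxycycline to YAP7d but not to YAP3d. The study restricted the activator to the hepatocyte lineage with Alb-Cre and used an active form of YAP, so endothelial and immune cells of the induced livers, although they carry tetYAP, were not the cells meant to express it. It was not examined here whether the Yap1 row also takes up transgene transcripts.

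In the Hippo pathway, upstream regulators such as NF2 activate the kinases LATS1 and LATS2, which phosphorylate the co-activators YAP and TAZ and hold them out of the nucleus. Unphosphorylated YAP and TAZ bind the TEAD transcription factors and switch on growth genes, while VGLL4 competes with them for TEAD. In the liver the pathway restrains organ size and, by restraining YAP, helps to keep hepatocytes differentiated.

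By the annotation of the mouse assembly GRCm38.p6, the co-activator gene Yap1 lies at chr9:7931999-8004638 and Wwtr1, which encodes TAZ, at chr3:57455644-57575910. The 4 TEAD genes lie at chr7:112679356-112906784 (Tead1), chr7:45215792-45233468 (Tead2), chr17:28331671-28350805 (Tead3) and chr6:128227143-128300813 (Tead4). The kinase genes Lats1 and Lats2 lie at chr10:7681200-7716461 and chr14:57689662-57746212. Nf2, which encodes the scaffold protein Merlin, lies at chr11:4757639-4849544 and Vgll4 at chr6:114860621-114970007.

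Because TEAD proteins recognise GGAATG, which reads as CATTCC on the other strand, RefSeq promoter windows of 300 bases on GRCm38.p6, 250 before and 50 after each start, were searched for these letters on both strands. The windows covered 8 of the 10 members, and 7 of their 13 windows held the letters, against 14.7% of 32851 mouse promoters. The 5 members with a match were Yap1, Wwtr1, Tead3, Lats2 and Vgll4, and the 2 Wwtr1 windows overlap each other, as do neighbours among the 3 Tead3 windows, so the windows are not independent. The windows of the 3 members whose level changed within a class or outside the endothelial-like cells are shown because the results below turn on them, with the motif in capitals. They are Lats2 (chr14:57746074-57746373, minus strand, match at base 255 of the window), Tead2 (chr7:45215542-45215841, plus strand, no match) and Vgll4 (chr6:114969154-114969453, minus strand, match at base 169). A further Lats2 window (chr14:57734369-57734668, minus strand) held no match and is not printed. The windows were:
Lats2: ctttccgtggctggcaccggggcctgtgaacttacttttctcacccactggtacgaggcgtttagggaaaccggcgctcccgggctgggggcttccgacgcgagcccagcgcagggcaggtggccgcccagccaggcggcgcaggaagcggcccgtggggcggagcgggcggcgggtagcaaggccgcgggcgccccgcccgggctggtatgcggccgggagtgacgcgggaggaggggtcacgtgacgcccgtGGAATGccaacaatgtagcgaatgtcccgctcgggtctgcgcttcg
Tead2: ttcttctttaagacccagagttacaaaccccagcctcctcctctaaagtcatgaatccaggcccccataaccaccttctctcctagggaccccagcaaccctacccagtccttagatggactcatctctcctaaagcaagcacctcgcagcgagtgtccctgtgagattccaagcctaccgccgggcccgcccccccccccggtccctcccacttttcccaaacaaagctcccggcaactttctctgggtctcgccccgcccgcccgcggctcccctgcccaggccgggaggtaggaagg
Vgll4: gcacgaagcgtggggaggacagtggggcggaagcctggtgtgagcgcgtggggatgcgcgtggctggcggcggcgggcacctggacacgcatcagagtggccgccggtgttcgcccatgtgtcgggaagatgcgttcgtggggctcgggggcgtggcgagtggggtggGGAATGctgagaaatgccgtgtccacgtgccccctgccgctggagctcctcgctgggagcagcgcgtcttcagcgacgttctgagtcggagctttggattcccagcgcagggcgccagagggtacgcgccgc
A match is a description of the letters and was not tested as a binding site.

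The table held 8562 cells and 63380159 UMIs, and the median depth per library ran from 3190.5 to 11471.5 UMIs per cell. Clustering of the 8527 cells with at least 200 genes, run without the members and their pathway lists, gave 26 clusters that were assigned to 13 marker-named classes, with 22 cells unnamed. Of 8515 distinct barcodes, 46 occurred in more than 1 library. The transcript Gm10709 set the YAP7d libraries and the YAP3d libraries 1 and 2 apart from the rest: in endothelial-like cells it stood at 411 to 792 UMIs per 1000000 UMIs of the class (CPM) in YAP7d, at 354 and 351 CPM in those YAP3d libraries and at most at 8.21 CPM in the other 4. Hepatocyte-like cells were few, 115 in all, and the study's protocol included an isolation of non-hepatocytes.

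Pooled over the 9 libraries, the co-activators, Tead1, Tead2 and Tead4 were carried mainly by endothelial-like cells. This class held 14.6% of all UMIs in the table, but 88.1% of the 1031 Wwtr1 UMIs, 81.2% of the 101 Tead4 UMIs, 80.9% of the 256 Tead1 UMIs, 77.8% of the 230 Tead2 UMIs and 74.3% of the 404 Yap1 UMIs. These pooled shares do not hold for each group, as the class averaged 37.8% of UMIs in WT, 22.6% in YAP3d and 4.26% in YAP7d. In YAP7d, hepatocyte-like cells held 45 Yap1 UMIs, more than the endothelial-like cells did. The kinase genes, Nf2 and Vgll4 were spread more widely, with 20.2% (Vgll4, 3644 UMIs in all), 20.9% (Lats1, 675), 26.3% (Nf2, 636) and 32.1% (Lats2, 1643) of their UMIs in endothelial-like cells. Tead3 was hardly captured, with 11 UMIs in all, of which 6 came from cholangiocyte-like and 3 from endothelial-like cells.

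**Figure D1:**
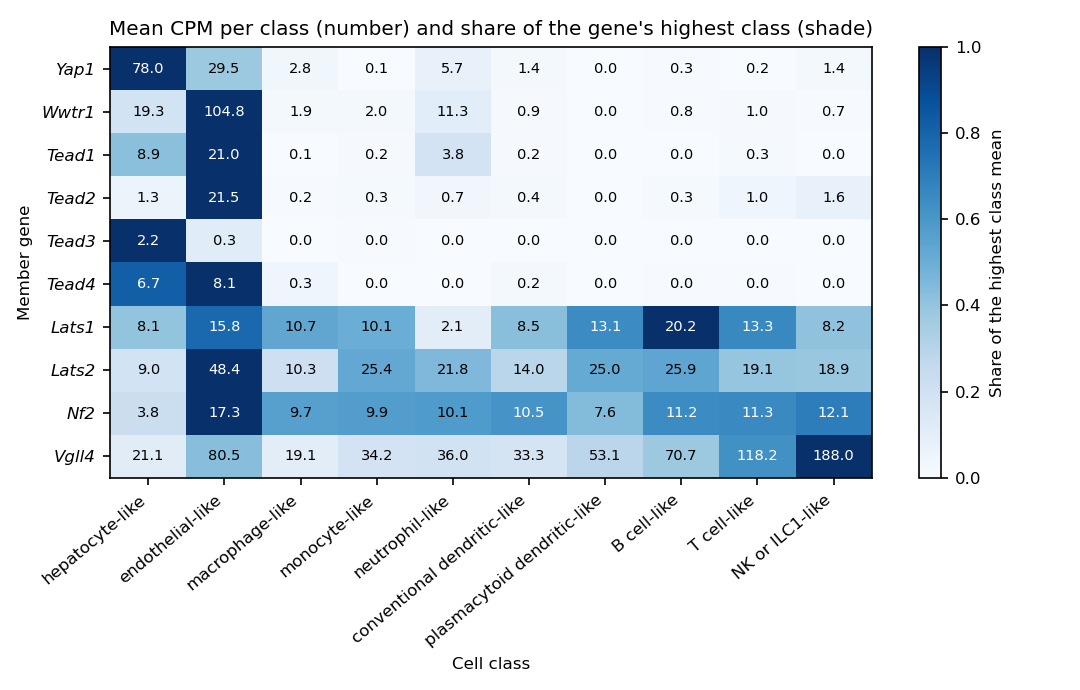
Level of each member (rows) by cell class (columns), as the mean CPM over libraries with at least 10 cells of the class, for the 10 classes with at least 3 such libraries (cholangiocyte-like cells, with 2, are left out), with the mean printed in each cell and shaded relative to the gene's highest class. Yap1, Wwtr1 and the TEAD genes have their highest values in endothelial-like or hepatocyte-like cells, from 2.24 CPM (Tead3, 1 UMI) to 105 CPM (Wwtr1), and at most 11.3 CPM (Wwtr1 in neutrophil-like cells) in the other classes shown, whereas Lats1, Lats2, Nf2 and Vgll4 are present in all classes shown.

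Levels per class were taken as CPM over all UMIs of the class in a library, as mean ± SD over the libraries with at least 10 of its cells. Yap1, the transcript of the effector itself, stood at 78.0 ± 41.1 CPM in hepatocyte-like cells (n = 6) and at 29.5 ± 8.82 in endothelial-like cells (n = 9). The hepatocyte-like value was the higher in 5 of the 6 libraries that hold both classes, all of them induced, and the ranges overlapped. Neutrophil-like cells followed at 5.74 ± 11.5 CPM (n = 4), which rests on 3 UMIs. Wwtr1 had the opposite order: 105 ± 15.1 CPM in endothelial-like cells (n = 9) and 19.3 ± 13.3 in hepatocyte-like cells (n = 6), higher in 6 of 6 shared libraries without overlap.

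The shares of cells with at least 1 UMI gave the same picture for both co-activators. Yap1 was seen in 29.6% of hepatocyte-like, 13.9% of endothelial-like and 0.257% of B cell-like cells, the last taken as the background. Median depth was 4365, 4371.5 and 3227.5 UMIs per cell in these classes. With each cell thinned to 2000 UMIs, which left 106 of 115, 1609 of 1948 and 1117 of 1166 cells, the shares were 12.3%, 6.56% and 0.114%. Wwtr1 was seen in 34.5% of endothelial-like cells (17.6% thinned), 9.57% of hepatocyte-like cells (2.91% thinned) and 1.03% of B cell-like cells (0.447% thinned).

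Among the TEAD factors, ranked over the 10 classes with enough cells, Tead2 stood at 21.5 ± 8.75 CPM in endothelial-like cells and 1.59 ± 3.61 in the next class, NK or ILC1-like cells (n = 9 each), higher in 9 of 9 libraries and without overlap. Tead1 stood at 21.0 ± 7.00 CPM in endothelial-like cells (n = 9) and 8.85 ± 13.8 in hepatocyte-like cells (n = 6), higher in 4 of 6 shared libraries. Tead4 stood at 8.14 ± 2.85 and 6.66 ± 10.7 CPM in the same classes, so that the second class could not be told from the first by its spread. Cholangiocyte-like cells are not in this ranking, and their pooled levels of Tead1 and Tead2, given below, were higher than these means.

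Of the kinases, Lats2 was highest in endothelial-like cells, at 48.4 ± 19.2 CPM, followed by B cell-like cells at 25.9 ± 5.97 (n = 9 each, higher in 7 of 9 libraries). Lats1 had no clear leading class: 20.2 ± 9.26 CPM in B cell-like, 15.8 ± 6.51 in endothelial-like and 13.3 ± 5.67 in T cell-like cells (n = 9 each), and the first exceeded the second in 5 of 9 libraries. Nf2 stood at 17.3 ± 3.75 CPM in endothelial-like and 12.1 ± 5.85 in NK or ILC1-like cells (n = 9 each, higher in 6 of 9 libraries).

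Vgll4 was highest in lymphoid classes. It stood at 188 ± 77.1 CPM in NK or ILC1-like cells, 118 ± 26.7 in T cell-like cells, 80.5 ± 21.6 in endothelial-like cells and 70.7 ± 20.8 in B cell-like cells (n = 9 each). NK or ILC1-like cells exceeded T cell-like cells in 9 of 9 libraries, T cell-like exceeded endothelial-like cells in 8 of 9, and endothelial-like exceeded B cell-like cells in 5 of 9. T cell-like cells held 33.5% of the Vgll4 UMIs in WT, 35.5% in YAP3d and 19.3% in YAP7d, endothelial-like cells 33.4%, 25.7% and 5.10%, and NK or ILC1-like cells 11.8%, 11.3% and 27.0%. Macrophage-like cells stood last at 19.1 ± 15.1 CPM (n = 9).

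The rare ductal and mesenchymal cells also held the pathway. In the 49 cholangiocyte-like cells, pooled over libraries, Wwtr1 reached 57.1 CPM (exact Poisson 95% interval 37.3 to 83.6, counting error only, from 26 UMIs), Tead1 52.7 (33.8 to 78.4, 24 UMIs), Tead2 41.7 (25.1 to 65.1, 19 UMIs) and Yap1 35.1 (20.1 to 57.0, 16 UMIs). Tead3 reached 13.2 CPM (4.8 to 28.7, 6 UMIs) and was seen in 6 of the 49 cells, 2 UMIs in each group. In the 22 stellate or fibroblast-like cells there were 9 UMIs of Wwtr1, 9 of Vgll4, 8 of Lats2 and 6 of Yap1, and none of Tead3 or Tead4, which allows up to 15.7 CPM for each (3 counts over the UMIs of these cells).

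Across the 10 classes with at least 3 such libraries, the log2(CPM + 1) levels of Tead1 and Wwtr1 correlated with r = 0.98, those of Tead1 and Tead4 with r = 0.96 and those of Yap1 and Wwtr1 with r = 0.86, as descriptions over classes that share libraries and depth. Lats2 correlated with Nf2 (r = 0.81) and Vgll4 (r = 0.74). Among 11795 genes, the patterns most like that of Yap1 were those of Parva (r = 0.993), Ddah1, Gstm2, Trim2 and Tspan12. For Wwtr1 they were Amotl2 (r = 0.987), Tjp1, Nr2f2, Mgll and Rusc2, and for Tead1 they were Enpep (r = 0.988), Nr2f2, Msrb3, Tmem98 and Lmcd1.

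Within endothelial-like cells, the question was whether the members differ between livers with and without YAP induction. After 7 days the kinase gene Lats2 was lower, and Tead2 was higher against 3 days, while Wwtr1, the member with the largest endothelial share, was not called. After 3 days no member was called. The class counted 276 and 502 cells in WT, 75, 51, 162 and 771 in YAP3d and 24, 23 and 64 in YAP7d. UMIs were summed per library and compared with edgeR's quasi-likelihood test across 7465 genes, of which 18.4% were called at an adjusted p below 0.05 in YAP7d against WT. Of the 10 members, 8 passed the filter on low counts, Tead3 and Tead4 did not, and 1 of the 8 was called.

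Lats2 stood at 62.7 and 66.5 CPM in WT, at 59.0, 41.5, 69.8 and 59.5 in YAP3d and at 18.1, 31.6 and 26.7 in YAP7d, from 4, 7 and 24 UMIs in the last group. Every YAP7d library lay below every other library. In YAP7d against WT this gave -1.26 on the log2 scale (SE 0.29, edgeR adjusted p = 0.00647), 25.5 ± 6.84 CPM (SD, n = 3) against 64.6 ± 2.74 (n = 2). Against YAP3d it was -1.12 (SE 0.27, edgeR adjusted p = 0.0105), a comparison in which 17.1% of genes were called. For scale, 24.2% of the genes lay lower without overlap in YAP7d than in WT and 14.8% lower than in YAP3d.

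Tead2 stood at 16.6 and 19.0 CPM in WT, at 20.8, 13.8, 12.5 and 16.2 in YAP3d and at 22.6, 36.1 and 35.7 in YAP7d. The YAP7d libraries lay above all others, as 19.7% of genes did against WT and 11.1% against YAP3d. The log2 fold change against YAP3d was 1.10 (SE 0.33, edgeR adjusted p = 0.0312). Against WT it was 0.90 (SE 0.35) and missed the threshold with an edgeR adjusted p of 0.0873. The call against YAP3d rests on single libraries: the edgeR adjusted p was 0.0741 without YAP3d replicate 3, 0.0709 without YAP3d replicate 4 and 0.0551 without YAP7d replicate 2. DESeq2 gave an adjusted p of 0.124, and 0.0447 for Lats2 in the same contrast.

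**Figure D2:**
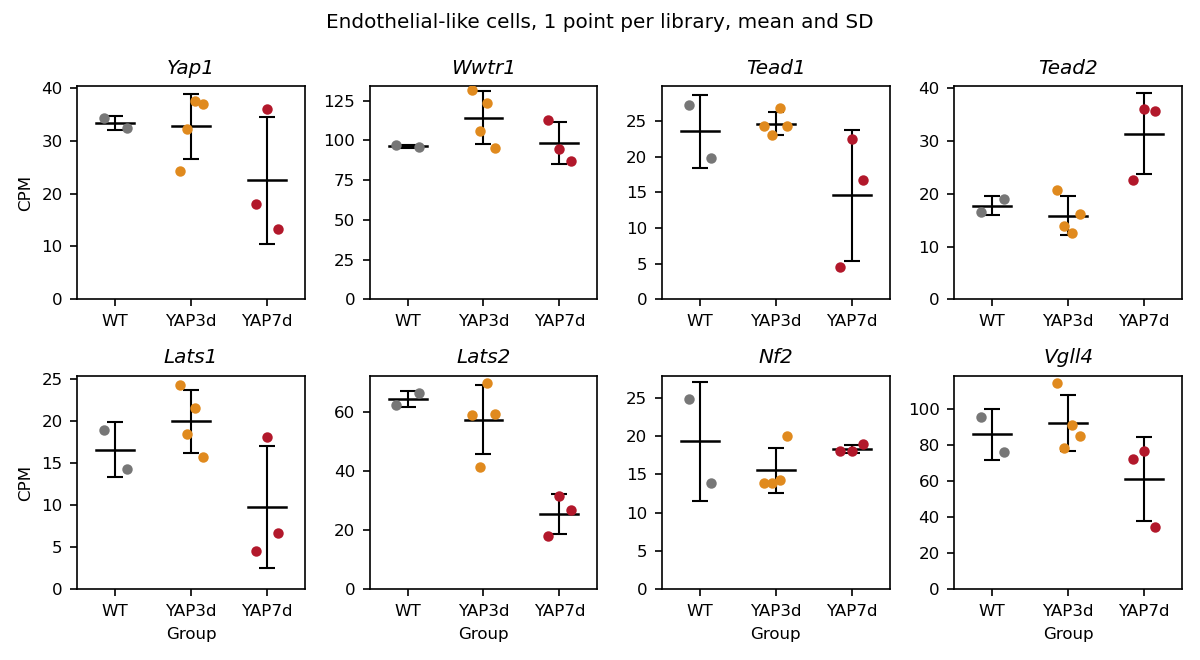
CPM (y axis) of the 8 members tested in endothelial-like cells, 1 point per library, by group (x axis), with the mean and SD as lines. Lats2 in the 3 YAP7d libraries lies at or below 31.6 CPM while the other 6 libraries lie at or above 41.5 CPM, and Tead2 in YAP7d lies above the other 6.

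The co-activators did not pass the threshold in this class. Yap1 stood at 34.3 and 32.4 CPM in WT, at 24.3 to 37.6 in YAP3d and at 18.1, 36.1 and 13.4 in YAP7d, or -0.74 in log2 (SE 0.38, adjusted p = 0.198 by edgeR) for YAP7d against WT. This Yap1 difference was -0.26 without YAP7d replicate 3 and ran from that to -1.06, without YAP7d replicate 2, over the 9 fits that each left out 1 library. Wwtr1 stood at 97.0 and 95.5 CPM in WT, at 94.9 to 132 in YAP3d and at 86.9 to 113 in YAP7d, or 0.04 in log2 (SE 0.22, adjusted p = 0.964 by edgeR). The log2 differences of the others were -0.62 for Vgll4 (SE 0.30, adjusted p = 0.165 by edgeR), -0.86 for Lats1 (SE 0.52, adjusted p = 0.284), -0.51 for Tead1 (SE 0.42, adjusted p = 0.439) and 0.08 for Nf2 (SE 0.42, adjusted p = 0.923). Leaving out 1 library, Vgll4 ran from -0.77 to -0.16 (without YAP7d replicate 3), Tead1 from -0.75 (without WT replicate 2) to -0.20 (without YAP7d replicate 1; -0.29 without WT replicate 1), and Nf2, in the 6 fits where it passed the filter, from 0.17 to -0.35 (without WT replicate 2). The median over the 8 members was -0.56, beside -0.04 over all genes tested.

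In YAP3d against WT, 0 of the 8 members and 0% of the 7465 genes were called by edgeR. At an unadjusted p under 0.05 there were 141 genes, and DESeq2 also called 0. The member log2 fold changes lay between -0.20 (Tead2) and 0.20 (Lats1 and Wwtr1).

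The makeup of the endothelial-like class moved with the same groups. A cluster led by Rspo3, a Wnt pathway agonist, held 95 of the 111 YAP7d cells (85.6%), against 18 of 778 WT cells (2.31%) and 25 of 1059 YAP3d cells (2.36%). The WT and YAP3d cells there came mainly from 1 library each, WT replicate 2 (17 of 18 cells) and YAP3d replicate 4 (20 of 25 cells). Pooled within that cluster, Lats2 stood at 27.4 CPM (exact Poisson 95% interval 19.0 to 38.3) in YAP7d, 106 (59.3 to 175) in YAP3d and 57.9 (18.8 to 135) in WT. Tead2 there stood at 31.4 CPM (22.3 to 42.9) in YAP7d, 42.4 (15.6 to 92.3) in YAP3d and 34.8 (7.17 to 102) in WT, so the Tead2 interval in YAP7d lay within that of the other groups. WT replicate 2 gave all 5 Lats2 and all 3 Tead2 UMIs of WT in that cluster, and YAP3d replicate 4 gave 11 of the 15 Lats2 and all 6 Tead2 UMIs of YAP3d. In the Bmp2-led cluster, which held 53.7% of the WT and 50.6% of the YAP3d cells, Lats2 stood at 65.0 and 61.4 CPM and Tead2 at 17.4 and 15.8 CPM in WT and YAP3d. With edgeR on libraries reduced to the Rspo3-led cluster, the Lats2 log2 fold change was -1.10 against WT (adjusted p = 0.479) and -1.78 against YAP3d (adjusted p = 0.166), and Tead2 did not pass the filter. WT replicate 2 and YAP3d replicate 4 were the lone libraries of their groups in that fit, which took libraries with at least 10 cells, and were assumed to vary like the 3 YAP7d libraries.

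**Figure D3:**
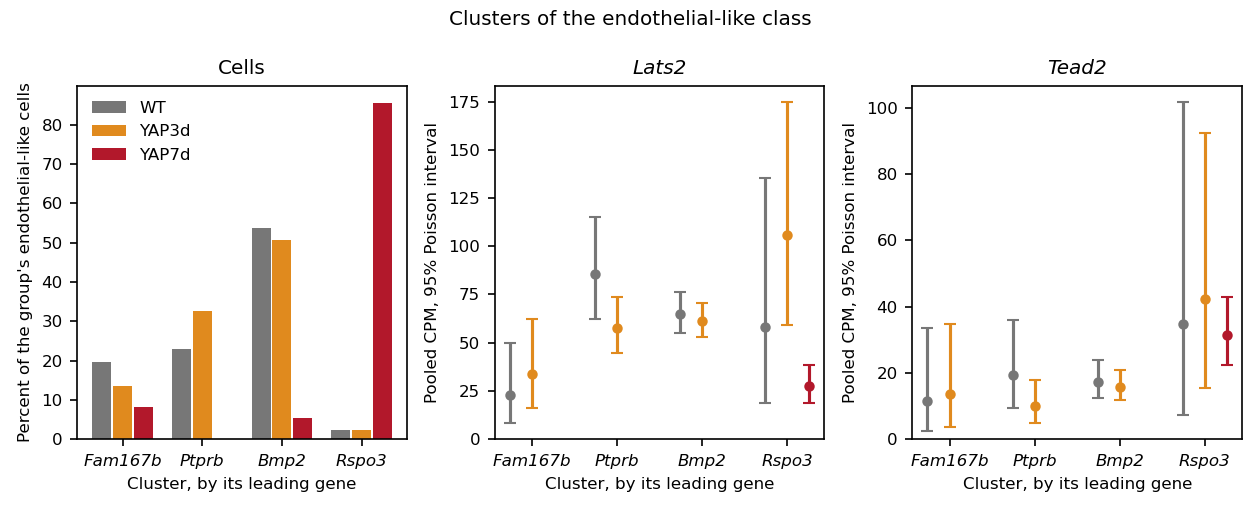
Share of each group's endothelial-like cells in 4 clusters named by their leading gene (bars, percent), and pooled CPM of Lats2 and Tead2 in them with exact Poisson 95% intervals, with YAP7d shown in the Rspo3-led cluster alone. The YAP7d cells sit mainly in the Rspo3-led cluster (85.6%), where Lats2 is 27.4 CPM in YAP7d and 106 in YAP3d, and where the Tead2 intervals of the 3 groups overlap.

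Cycling and marker levels also moved with the groups. The share of endothelial-like cells with at least 2 UMIs of 14 mitosis genes was 5.80% and 12.7% in WT, at most 14.7% in YAP3d and 43.5% to 59.4% in YAP7d, and 27 of 30 proliferation genes tested rose in YAP7d against WT (median log2 fold change 3.34). The share was not thinned to equal depth. Median UMIs per endothelial-like cell ran from 2317 to 4772 in WT and YAP3d and from 7403.5 to 13759.5 in YAP7d. The summed level of the 12 endothelial markers was 16085 to 18173 CPM in WT, 15191 to 17043 in YAP3d and 8131 to 8472 in YAP7d. Stellate or fibroblast markers summed to 114 to 157, 125 to 253 and 22.6 to 40.6 CPM in these groups. Conventional dendritic markers summed to 121 to 136, 115 to 176 and 79.1 to 94.8 CPM. No marker list of another class lay higher in YAP7d without overlap. The part of these markers in the member values was not tested. Without the cycling cells, the Lats2 log2 fold change was -1.30 (edgeR adjusted p = 0.0283) against WT and -1.11 (adjusted p = 0.0604) against YAP3d. With a term for the libraries holding Gm10709 it was -0.91 (edgeR adjusted p = 0.322) against WT and -0.88 (adjusted p = 0.174) against YAP3d. That term marks every YAP7d library and no WT library, so only the split within YAP3d separates it from the group difference. Without YAP7d replicate 3, the deepest of its group, Lats2 against YAP3d had a log2 fold change of -1.21 (edgeR adjusted p = 0.0512). In the 7 libraries with at least 50 endothelial-like cells, where YAP7d is replicate 3 alone and is assumed to vary like the other groups, the Lats2 log2 fold change against WT was -1.13 (edgeR adjusted p = 0.0599).

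Other Hippo regulators were taken from a list of 32 genes, of which 26 could be tested in this class. In YAP7d against WT, 4 of the 26 fell and 0 rose, which is close to the 18.4% of all genes called in either direction, with 8.75% called lower (median log2 fold change -0.58, beside -0.04 over all genes). Amotl2, an angiomotin that holds YAP at junctions and is itself a YAP target, stood at 98.0 ± 9.87 CPM in WT (n = 2) and 34.8 ± 2.84 in YAP7d (n = 3), with a log2 fold change of -1.42 (edgeR adjusted p = 0.00105). Its relative Amotl1 had a log2 fold change of -1.08 (edgeR adjusted p = 0.00104), the scaffold gene Wwc2 one of -1.05 (adjusted p = 0.0375) and the kinase gene Taok2 one of -0.75 (adjusted p = 0.0457). The calls of Amotl1 and Amotl2 held in 19 of 20 other settings of the analysis each, that of Wwc2 in 12 and that of Taok2 in 6. Against YAP3d 5 of 26 fell and 0 rose, namely Amotl1, Amotl2, Wwc2, Taok3 and Csnk1e, the last 2 named after their values were seen, beside 8.14% of all genes lower in that contrast. Taok3 kept this call in 11 and Csnk1e in 8 of 20 other settings. In YAP3d against WT 0 of 26 regulators were called.

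Of 20 YAP target genes, 9 were tested and 4 fell in YAP7d against WT, with 0 higher: Cyr61, a matricellular protein gene (log2 fold change -1.94, edgeR adjusted p = 0.0436), Amotl2, the secreted protein gene Ccdc80 (-1.11, adjusted p = 0.00344) and Crim1 (-1.04, adjusted p = 0.00238). These counts stand beside 18.4% of all genes called in this contrast and 8.75% called lower. Cyr61 overlapped between the groups and kept its call in 11 of 19 other settings, over which its log2 fold change ran from -2.52 to -0.35. The median over the 9 was -1.04. Against YAP3d 3 of 9 fell (Amotl2, Ccdc80 and Crim1), beside 17.1% of all genes called in that contrast and 8.14% called lower, and in YAP3d against WT 0 of 9 were called.

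In hepatocyte-like cells, the class meant to express the transgene, the question was whether Yap1 and its partners differ between 3 and 7 days of induction. Yap1 was higher at 7 days in the pooled counts, but the libraries overlapped and the test missed its threshold. WT had 3 such cells with 1 Yap1 UMI, so that no comparison with WT could be made. YAP3d had 9, 13, 18 and 11 cells and YAP7d 28, 22 and 11.

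Yap1 stood at 19.7, 80.5, 22.2 and 57.3 CPM in YAP3d, from 1, 6, 1 and 6 UMIs, and at 73.3, 87.2 and 147 CPM in YAP7d, from 15, 11 and 19 UMIs. YAP3d replicate 2 lay above YAP7d replicate 1. The difference in means was 57.7 CPM (102.6 ± 39.3, n = 3, against 44.9 ± 29.3, n = 4), with p = 0.0857 by a two-sided exact permutation test over the 35 assignments of libraries, whose smallest possible p is 0.0286. YAP3d replicate 1 had 9 cells, and without it the difference was 49.3 CPM with p = 0.2 by the same exact test, whose smallest possible p is then 0.05. Pooled over cells, Yap1 stood at 50.9 CPM (exact Poisson 95% interval 27.8 to 85.4) in 51 YAP3d cells and 97.9 (71.4 to 131) in 61 YAP7d cells. Wwtr1 stood at 18.2 and 21.8 CPM.

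Tead1 and Tead4 UMIs appeared in YAP7d hepatocyte-like cells and not in YAP3d ones, where 0 UMIs allow up to 10.9 CPM (3 counts over the UMIs of these cells). Tead1 had 9 UMIs in YAP7d, 6, 3 and 0 by library, which is 19.6 CPM (8.95 to 37.2). Tead4 had 7 UMIs in YAP7d, 5, 0 and 2 by library, which is 15.2 CPM (6.12 to 31.4). Both YAP7d intervals reach below the YAP3d bound. With no filter on low counts, edgeR gave adjusted p = 0.446 for Tead1, 0.642 for Tead4 and 0.748 for Yap1. No member passed the filter in this class, where 3.09% of 1713 genes were called. Markers of other classes were present in these cells: endothelial markers summed to 66.6 to 612 CPM in YAP3d and 4.89 to 79.3 in YAP7d, and macrophage markers to 39.4 to 182 and 259 to 721 CPM. Cholangiocyte markers summed to 433, 26.8, 44.4 and 19.1 CPM in YAP3d and to 109 to 200 in YAP7d, and hepatocyte markers to 15861 to 33073 CPM over both groups. Their part in the Tead1, Tead4 and Yap1 values was not tested.

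**Figure D4:**
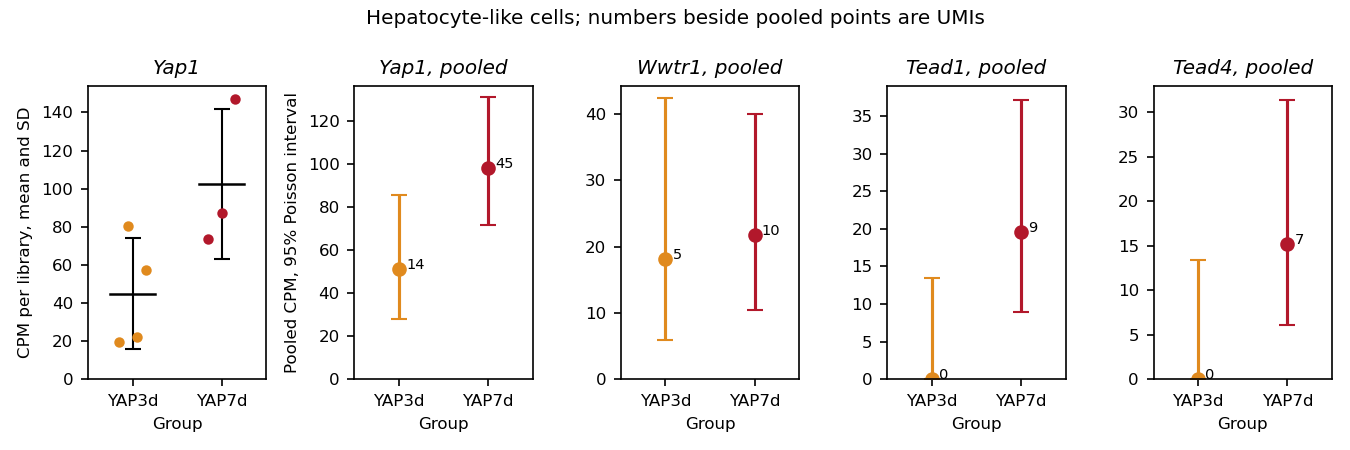
Hepatocyte-like cells: Yap1 by library as CPM with mean and SD (left), then Yap1, Wwtr1, Tead1 and Tead4 pooled over the cells of a group, as CPM with exact Poisson 95% intervals and the number of UMIs beside each point. Yap1 in the 3 YAP7d libraries lies from 73.3 to 147 CPM and in the 4 YAP3d libraries from 19.7 to 80.5 CPM, and Tead1 and Tead4 are at 0 in YAP3d.

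Summed over all cells of a library, 5 of the 9 members tested were lower in YAP7d than in WT: Wwtr1, Tead1, Yap1, Tead2 and Vgll4. In this comparison 18.1% of 12071 genes were called, and 10.9% were called lower. Such sums alone do not separate fewer cells of a type from less RNA per cell, so each is given for endothelial-like cells. Their share of cells was 53.0% and 35.5% in WT and 4.01%, 4.99% and 3.49% in YAP7d. Their median depth was 2384 and 4668.5 UMIs per cell in WT and 7403.5, 8292 and 13759.5 in YAP7d. The endothelial-like share of all UMIs was 44.1% and 31.5% in WT, 22.4%, 7.16%, 32.8% and 28.3% in YAP3d and 3.88%, 5.33% and 3.58% in YAP7d.

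Wwtr1 stood at 42.8 and 33.9 CPM in WT, at 31.0, 9.91, 42.3 and 29.5 in YAP3d and at 6.30, 7.69 and 4.15 in YAP7d. All YAP7d libraries lay below all others, and YAP3d replicate 2, the induced library with the smallest endothelial-like share at 3 days, lay closest to them. Against WT the log2 difference was -2.54 (SE 0.45, adjusted p = 0.0066 by edgeR). Tead1 (-2.37, SE 0.59, adjusted p = 0.0226), Yap1 (-1.83, SE 0.49, adjusted p = 0.0293) and Tead2 (-1.82, SE 0.51, adjusted p = 0.0344) fell likewise, and Vgll4 fell less (-0.94, SE 0.20, adjusted p = 0.0119). All 5 lay without overlap below WT, as 34.6% of all genes did. Lats2 (-0.89, edgeR adjusted p = 0.0801), Tead4 (-1.70, 0.129), Nf2 (-0.42, 0.359) and Lats1 (-0.31, 0.50) missed the threshold.

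The Wwtr1 call held in 15 of 15 other settings of the analysis, that of Vgll4 in 13, that of Tead1 in 10 and those of Yap1 and Tead2 in 9 each. Without WT replicate 1 or WT replicate 2, Wwtr1 was the one member called of these, and without YAP7d replicate 1 or YAP7d replicate 3 the number called was 2 or 3. Against YAP3d, where 16.5% of genes were called, Wwtr1 (-2.10, edgeR adjusted p = 0.0106), Tead1 (-1.92, adjusted p = 0.0347), Yap1 (-1.50, adjusted p = 0.041) and Vgll4 (-0.99, adjusted p = 0.0076) were lower. In YAP3d against WT, 0 members and 0% of genes were called by edgeR, with 358 genes at an unadjusted p under 0.05 and 16 by DESeq2.

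**Figure D5:**
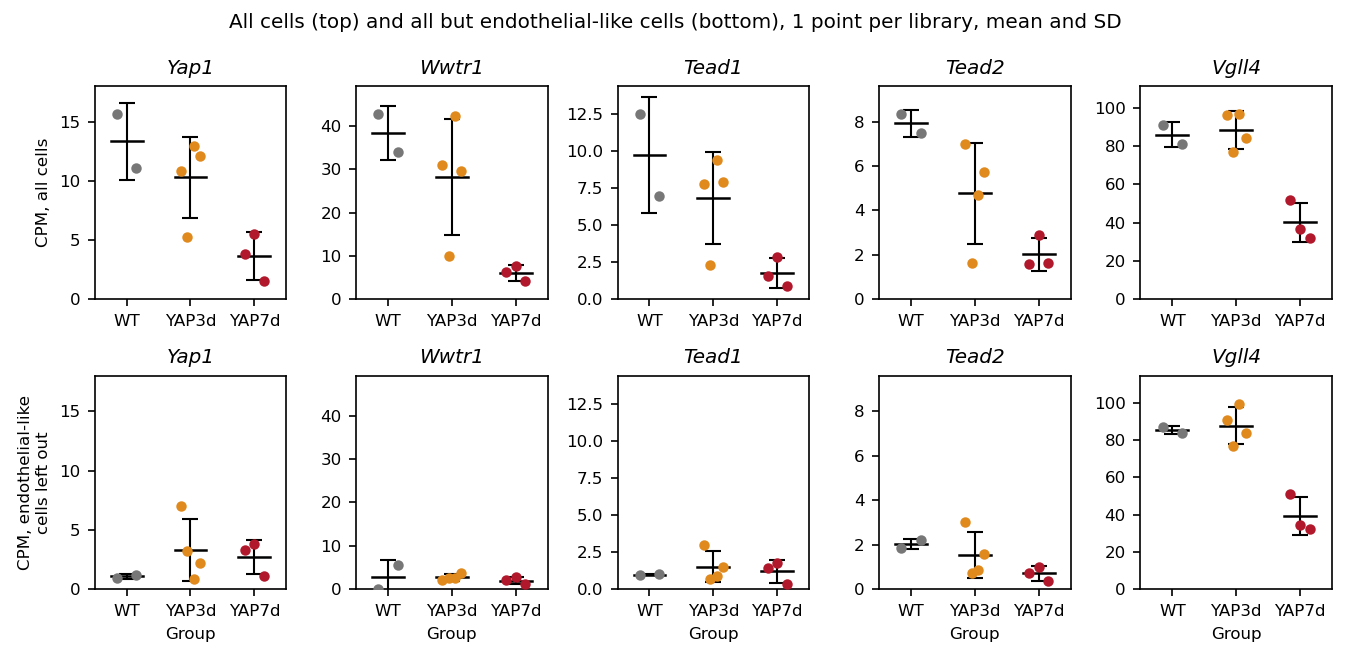
CPM of the 5 called members by group, 1 point per library with mean and SD, summed over all cells (top) and over all cells but the endothelial-like ones (bottom, same scales but for Vgll4). Wwtr1 falls from 33.9 to 42.8 CPM in WT to 4.15 to 7.69 in YAP7d over all cells, while Vgll4 keeps its difference without the endothelial-like cells.

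With the endothelial-like cells left out, 1 of the 6 members tested was called, and it was not a co-activator. Yap1 stood at 1.06 ± 0.18 CPM in WT (n = 2) and 2.72 ± 1.45 in YAP7d (n = 3), a log2 difference of 1.18 (SE 0.85, adjusted p = 0.395 by edgeR). Wwtr1 stood at 2.79 ± 3.94 and 1.96 ± 0.86 CPM, a log2 difference of -0.93 (SE 0.76, adjusted p = 0.465 by edgeR). In this comparison 3.31% of 11857 genes were called.

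Vgll4 stood at 86.8 and 83.6 CPM in WT, at 90.9, 76.5, 99.5 and 83.5 in YAP3d and at 51.0, 34.3 and 32.1 in YAP7d in these cells. Every YAP7d library lay below all others, as 24.6% of genes did against WT. The log2 fold change was -1.08 (SE 0.21, edgeR adjusted p = 0.0348) against WT and -1.08 (SE 0.18, adjusted p = 0.013) against YAP3d, a contrast in which 9.75% of genes were called. DESeq2 gave an adjusted p of 0.00116 against WT. The edgeR call was lost without WT replicate 1 (adjusted p = 0.132), WT replicate 2 (0.151), YAP3d replicate 3 (0.0581), YAP7d replicate 2 (0.114) or YAP7d replicate 3 (0.0721), with log2 fold changes of -0.97 to -1.10 in these 5 fits. In YAP3d against WT, 0 members and 0% of genes were called by edgeR, with 251 at an unadjusted p under 0.05 and 7 by DESeq2.

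The shares of the classes differed in the same libraries. NK or ILC1-like cells, the class highest in Vgll4, held 4.997% ± 0.10 of UMIs in WT and 7.73% ± 3.84 in YAP7d (n = 2 and 3). T cell-like cells held 23.1% ± 0.69 of UMIs in WT and 8.06% ± 1.97 in YAP7d, B cell-like cells 8.64% ± 3.04 and 2.27% ± 1.21, whereas monocyte-like cells, low in Vgll4, held 5.85% and 36.0% on average (n = 2 and 3). With the shares of 6 classes held at their means, Vgll4 stood at 70.1 and 78.0 CPM in WT, at 73.0, 88.4, 94.7 and 78.2 in YAP3d and at 65.6, 46.3 and 54.7 in YAP7d. The log2 ratio of the YAP7d to the WT mean was then -0.42, against -1.19 over the same 6 classes with each library's own shares.

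Within single classes Vgll4 was not called. In T cell-like cells it stood at 124 and 122 CPM in WT, at 132 to 152 in YAP3d and at 87.0 ± 19.5 in YAP7d (n = 3, lowest 64.6), with a log2 fold change of -0.39 (edgeR adjusted p = 0.682) against WT and -0.55 (adjusted p = 0.219) against YAP3d. In NK or ILC1-like cells it stood at 201 and 194 CPM in WT, at 142 to 348 in YAP3d and at 130, 72.6 and 162 in YAP7d, with a log2 fold change of -0.51 (edgeR adjusted p = 0.408) against WT. YAP7d replicate 2 was the lowest library in both classes. Over the 6 classes with enough cells beside the endothelial-like ones, 11 tests of members in YAP7d against WT gave 0 calls at the edgeR threshold, where 0% of genes were called in T cell-like and conventional dendritic-like cells, 0.0448% in B cell-like, 0.696% in monocyte-like, 1.6% in macrophage-like and 6.46% in NK or ILC1-like cells. Low counts limited these tests: T cell-like cells allowed 3 members to be tested (Lats1, Lats2 and Vgll4), monocyte-like cells 4 (the same and Nf2), and the others Vgll4 alone.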

How the data were processed

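Counts were deposited as 1 table of unnormalised UMI counts per gene and cell, made by the authors with Cell Ranger from droplet 3′ libraries on mm10 (per the labels and the study's methods, which also used Seurat 2). The members and lists were chosen with earlier results of these data known. Cells with under 200 genes were removed (35 of 8562), and 60 cells called as doublets (0.704%) were kept. Cells were clustered with scanpy 1.11.5 without member and list genes and named by fixed markers. UMIs were summed per library and class, with at least 10 cells for the fits and class means. The hepatocyte-like Yap1 permutation test and marker sums took all 7 induced libraries, 1 of them with 9 cells. The values with fixed class shares took classes with at least 5 cells in every library. All groups entered 1 edgeR 4.0.16 quasi-likelihood fit (TMM scaling, filterByExpr, Benjamini-Hochberg over all genes, threshold 0.05), and the SE is the log2 fold change over the root of F. DESeq2 1.42.0 was an alternative. All 10 members were named, with the called genes of the lists of largest change. On simulated counts, 98.0%, 95.5% and 92.5% of 200 genes changed by 2 on the log2 scale were recovered in the endothelial-like, hepatocyte-like and all-cell tests, where 7.11%, 3.05% and 6.57% of the calls were false. The changed genes were drawn from those above the median CPM of the genes tested. Recovery of lower genes or of smaller changes, such as those of the members, was not measured. Correlations of same-numbered libraries' deviations ran from -0.165 to 0.128, so the numbers were not taken as pairs. Labels name replicates but not separate animals, so p-values measure the spread between libraries, which may be technical. Intervals and floors cover counting error alone. Protein sequences and a genome of the authors' build were not used here.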

Additional observations from a re-analysis of the deposited data

Results flagged for a closer look

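Of 37 groups of 4 libraries checked for a library that stands far from the others, 4 were picked out (Dixon's gap over range above 0.829). The usual chance rate of about 1 in 20 does not hold for genes with counts near 0. A gene counted in 1 of 4 libraries has a gap over range of 1 whatever its level. Nf2 in endothelial-like cells stood at 20.0 CPM in YAP3d replicate 4 and at 13.8 to 14.3 in the other YAP3d libraries. Tead3 stood at 13.4 CPM in the hepatocyte-like cells of YAP3d replicate 2, from 1 UMI, and at 0 in the other 3. Over all cells but the endothelial-like ones, Tead3 stood at 0.712 CPM in YAP3d replicate 2 and at most at 0.107 in the others, and Tead4 at 0.533 CPM in YAP3d replicate 4 and at 0 in the others. YAP3d replicate 4 held 13092200 UMIs over all cells, against 1314878 to 3031346 in the other YAP3d libraries.

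The change at 7 days differed from that at 3 days for 7 values by edgeR's test of YAP7d against YAP3d, which is the difference of the 2 changes because both use the same WT libraries. In endothelial-like cells these were Tead2 (log2 difference 1.10) and Lats2 (-1.12). Over all cells they were Wwtr1 (-2.10), Tead1 (-1.92), Yap1 (-1.50) and Vgll4 (-0.99), and over all cells but the endothelial-like ones Vgll4 (-1.08).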

How the results depend on the processing

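In endothelial-like cells, the 1 member called in YAP7d against WT (Lats2) became 0 with a term for Gm10709 or in the Rspo3-led cluster, a setting chosen after seeing the data in which WT and YAP3d are 1 library each and are assumed to vary like the 3 YAP7d libraries. In the 7 libraries with at least 50 cells, likewise added, 1 was called but it was Vgll4 (log2 fold change -1.15, edgeR adjusted p = 0.0459). Against YAP3d the count of 2 became 1 by DESeq2, without the filter on low counts or with only the 2 groups compared, and 0 without cycling cells (where Tead2 did not pass the filter), with the Gm10709 term or in the Rspo3-led cluster. In the other classes 0 became 1 without the filter. The Vgll4 difference outside endothelial-like cells went from -1.08 in the edgeR fit to -0.42 as a log2 ratio of means over 6 classes with their shares fixed, a ratio that is -1.19 with each library's own shares. Over all cells, without the 2 YAP3d libraries that hold Gm10709, 6 members were called. The causes of these changes were not tested.

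The replicate numbers do not mark shared animals or batches in the labels and did not pair the libraries. With the replicate block, 1 member was called in endothelial-like cells against WT, 1 against YAP3d (Tead2 at an adjusted p of 0.112 by edgeR), 3 over all cells and 1 outside endothelial-like cells.

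Leaving out 1 library at a time kept 1 member called in endothelial-like cells against WT in all 9 fits, gave 0 to 2 against YAP3d, 1 to 6 over all cells and 0 to 1 outside endothelial-like cells, and gave 0 in YAP3d against WT and in hepatocyte-like and the other classes. The Yap1 difference in hepatocyte-like cells ran from 35.3 to 72.3 CPM. Wwtr1 outside endothelial-like cells ran from -1.60 to 6.44, the reversal coming without WT replicate 2, where the remaining WT library had 0 UMIs (edgeR adjusted p = 0.317).

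Counts of genes called moved by over 1.5 times as well. In endothelial-like cells against WT, 1372 became 573 without cycling cells, 232 with the Gm10709 term, 864 in libraries of at least 50 cells and 243 in the Rspo3-led cluster, and 662 to 1391 leaving out a library. Against YAP3d, 1280 became 508, 459, 772 and 161 in the same 4 settings, and 700 to 1278. In YAP3d against WT, 0 became 38 without the filter, 16 with the block and 0 to 7 leaving out a library. Over all cells, 2184 became 509 to 3179. Outside endothelial-like cells, 392 became 1151 by DESeq2, 922 without the filter, 920 with the block, 1054 without the 2 YAP3d libraries and 0 to 1263. In hepatocyte-like cells, 53 became 81 by DESeq2, 170 without the filter and 0 to 187. Over the other 6 classes, 412 became 1566 without the filter, 1078 with the block, 876 without the 2 YAP3d libraries and 82 to 833.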
